A study of Mus musculus with 9 samples.

Results

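Glutamatergic transmission in the sorted cells was examined through 5 genes: Slc17a6, Slc17a7 and Slc17a8, which encode the vesicular glutamate transporters VGLUT2, VGLUT1 and VGLUT3, and Slc1a1 and Slc1a2, which encode the plasma membrane glutamate transporters EAAC1 and GLT-1. They were taken by gene symbol from the 32695 genes of the count table (spike-in controls left out), and all 5 were present. Ventral midbrain cells were sorted from mice carrying VGAT-Cre, Ai14 and Pitx3-GFP, in which cells that express or once expressed VGAT (Slc32a1, the vesicular GABA transporter) carry tdTomato and cells with Pitx3, a transcription factor of midbrain dopamine neurons, carry GFP. Cells with tdTomato alone are called VGAT cells and cells with tdTomato and GFP are called VGAT+Pitx3 cells. Every group carried the same 3 alleles, and no treatment was given. VGAT cells filled 4 plates at E16 and 3 plates at P0, and VGAT+Pitx3 cells filled 1 plate at each stage. Animals were pooled for sorting, so a plate is not 1 animal. The p-values of comparisons between plates measure the spread between plates, which may be technical. Those of splits of cells within plates do not measure that spread. tdTomato reports the history of Cre and not the current level of Slc32a1.

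Neurons that release glutamate load it into synaptic vesicles with a vesicular glutamate transporter, and the presence of one of the 3 is the usual mark of a glutamatergic neuron. VGLUT2 is the main form in the midbrain and other subcortical regions, VGLUT1 that of the cerebral cortex and hippocampus, and VGLUT3 is found in scattered cells that often release another transmitter as well. A subset of midbrain dopamine neurons carries VGLUT2 and co-releases glutamate. Plasma membrane transporters of the Slc1 family clear glutamate from the extracellular space: GLT-1 does most of this in mature astrocytes and is also transcribed in developing neurons, whereas EAAC1 is the neuronal form and also takes up cysteine.

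In mouse genome build GRCm38 the genes lie at chr7:51622006-51671119 on the plus strand (Slc17a6), chr7:45163949-45176142 plus (Slc17a7), chr10:89574020-89621253 minus (Slc17a8), chr19:28835049-28913960 plus (Slc1a1) and chr2:102658659-102790784 plus (Slc1a2). Counts covered exons and introns together. On their own strand, Slc17a6 overlaps Gm45072 and Slc17a7 overlaps the microRNA gene Mir7055. Gm45072 held 2 counts over the VGAT plates and 2 over the VGAT+Pitx3 plates. Slc1a2 overlaps the antisense gene Gm13872, and Slc1a1 overlaps 4430402I18Rik and the pseudogene Gm5822 on the other strand. The overlapping Gm13872 held 0 to 2 counts per plate and 4430402I18Rik 2 to 18, and as the sources used here do not state whether counting used strand, reads of these pairs may not be fully separated.

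Of 3455 wells, 2035 passed the limits on detected genes (2000 or more), counts (no more than 50000) and mitochondrial counts (under 15%): 1460 VGAT and 575 VGAT+Pitx3 cells. A plate held 44 to 305 such cells and 1435919 to 5408710 counts. VGAT P0 replicate 1 had 44 cells, and VGAT P0 replicate 2 had the shallowest cells of the VGAT plates, with a median of 7039 counts against 15593 to 33236 on the other 6. The column names of the table hold 2 plate names, and for VGAT E16 replicates 3 and 4 and VGAT P0 replicates 1 and 3 these differ in stage. The name that matches the sample title was used, and the stage difference of each member is given also from the plates whose names agree. The sorts matched their defining genes. The dopamine transporter gene Slc6a3 stood at 706 and 611 CPM (counts per 1e6 counts of the plate, TMM-scaled) on the VGAT+Pitx3 plates and at a mean of 0.86 (SD 0.55, n = 4) and 1.89 (SD 1.70, n = 3) on the VGAT plates at E16 and P0, and Slc32a1 at 226 and 274 CPM against 196 ± 36.0 and 286 ± 34.3.

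Slc17a6 was far higher in the VGAT+Pitx3 sort. It stood at 106 CPM on the E16 VGAT+Pitx3 plate (95% Poisson interval 97.0 to 116, 470 counts) and at 198 CPM on the P0 plate (180 to 217, 459 counts). On the VGAT plates it measured 4.68, 6.32, 0.58 and 1.81 CPM at E16 and 0, 14.3 and 0 CPM at P0, from 19, 33, 3 and 9 and from 0, 27 and 0 counts. The sorts did not overlap, and the highest VGAT plate, P0 replicate 2, was far below either VGAT+Pitx3 plate. With stage as a covariate, edgeR's quasi-likelihood test gave a log2 fold change of 5.25 (SE 0.52, adjusted p = 7.05e-06), a 38.1-fold higher level in VGAT+Pitx3 cells. On the 5 plates whose 2 names agree, which leave P0 replicate 2 as the only VGAT P0 plate, it was 16.9-fold (4.08, adjusted p = 2.16e-08). The Poisson intervals cover counting error only, and a summed level cannot tell a larger share of positive cells from more RNA per cell. The shares of cells below do not settle this, as detection in a cell also depends on its RNA.

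Slc17a7 was close to 0 throughout. It gave 0, 1, 0 and 3 counts on the VGAT E16 plates, 1, 5 and 0 on the P0 plates and 2 and 1 on the VGAT+Pitx3 plates, too few for the test across genes. No plate exceeded 2.65 CPM, the level of VGAT P0 replicate 2.

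Slc17a8 was rare in both sorts. The VGAT plates held 4.43, 5.17, 1.35 and 2.41 CPM at E16 (mean 3.34 ± 1.77, SD) and 8.62, 5.83 and 10.2 CPM at P0 (mean 8.23 ± 2.23), and the VGAT+Pitx3 plates 1.36 CPM (6 counts) and 3.88 CPM (9 counts). The lower value of the VGAT+Pitx3 sort, at a log2 fold change of -1.15 (SE 0.52, adjusted p = 0.26, edgeR), did not pass the threshold, and the sorts overlapped.

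Slc1a1 was measured at a like level in every group. VGAT plates lay at 60.8, 75.8, 65.7 and 64.0 CPM at E16 and 69.7, 84.2 and 66.7 CPM at P0, and VGAT+Pitx3 plates at 52.8 and 56.1 CPM. Both VGAT+Pitx3 plates were below all 7 VGAT plates, yet the difference of -0.34 on the log2 scale (SE 0.14, adjusted p = 0.20, edgeR) did not pass the threshold.

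Slc1a2 was the most abundant of the 5 by summed counts, which are not corrected for gene length. The VGAT+Pitx3 plates stood at 348 CPM (331 to 366) at E16 and 224 CPM (205 to 244) at P0. The VGAT plates stood at 159, 145, 193 and 193 CPM at E16 and 76.3, 110 and 104 CPM at P0. At each stage the VGAT+Pitx3 plate was above every VGAT plate, and the log2 fold change between the sorts was 1.12 (SE 0.15, adjusted p = 0.000108, edgeR), or 2.18-fold.

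**Figure D1:**
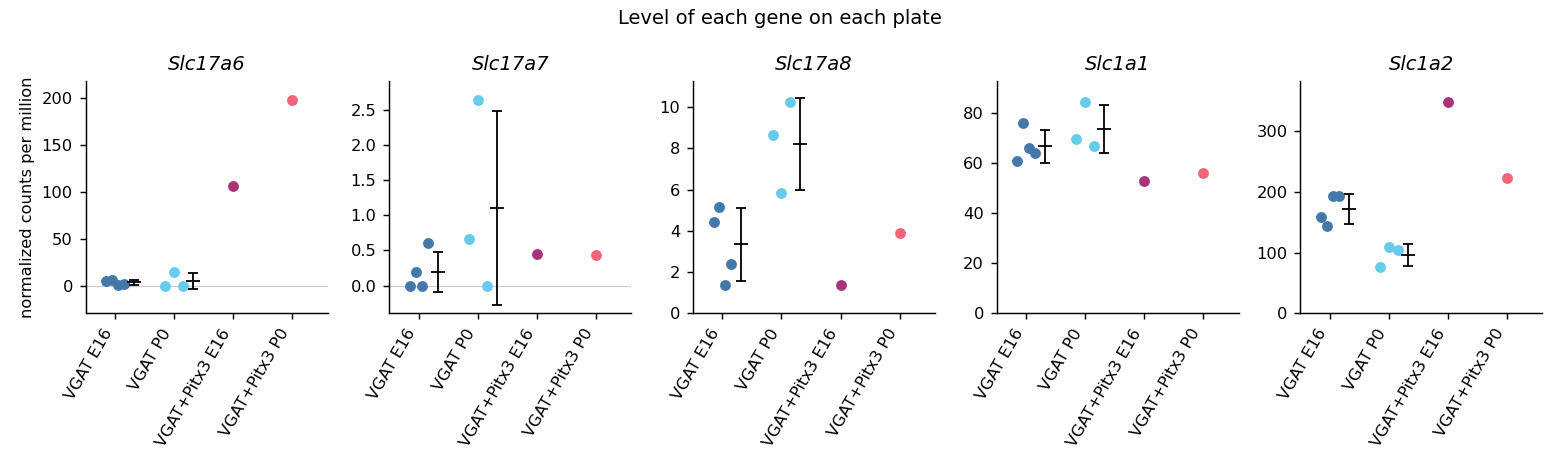
Level of each of the 5 genes on each plate in TMM-scaled CPM (vertical axis, linear, a different range for each gene), by sort and stage (horizontal axis); points are plates, and crossbars with whiskers are the mean and SD of the VGAT groups (4 and 3 plates). Slc17a6 is at 106 and 198 on the VGAT+Pitx3 plates and at most 14.3 on a VGAT plate, whereas Slc1a1 lies between 52.8 and 84.2 everywhere.

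Between the sorts, 2 of the 4 genes that passed the filter on low counts (Slc17a6 and Slc1a2) rose and none fell, where 8.93% of the 14624 genes tested passed the threshold. The sorts did not overlap for 3 of the 4 (Slc17a6, Slc1a2 and Slc1a1), where this held for 14.2% of all genes tested. Among the transmitter genes set beside them, Gad1 fell (log2 fold change -6.37, adjusted p = 3.88e-10) and Gad2, the other glutamate decarboxylase, rose (0.83, adjusted p = 0.000269). Slc32a1 stood at 0.10 (adjusted p = 0.82). The glutamate handling list, with enzymes of glutamate metabolism, glutamine carriers and the other Slc1 transporters, gave 1 higher, 1 lower and 12 uncalled genes of its 14 tested members of 16. Glud1, mitochondrial glutamate dehydrogenase, rose (0.52, SE 0.12, adjusted p = 0.0124), and Slc1a6, the transporter EAAT4 of cerebellar Purkinje cells, fell (-1.36, SE 0.31, adjusted p = 0.0118). The median log2 fold change was 0.19 over the list and -0.00068 over all genes. Slc1a3, the astrocytic transporter GLAST, stood at 2.27 (SE 0.92, adjusted p = 0.18).

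**Figure D2:**
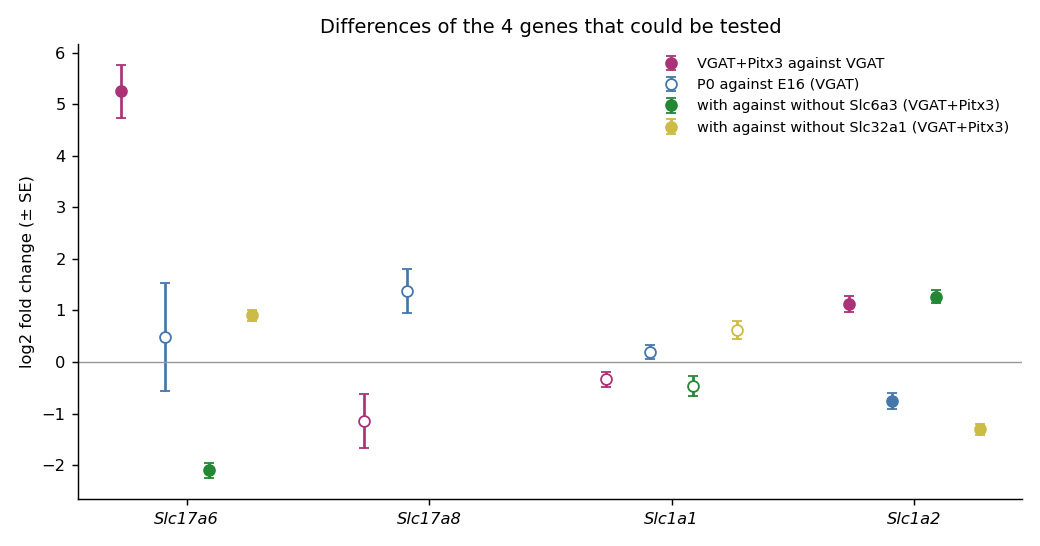
Log2 fold change (vertical axis, bars are ± SE from the edgeR fit) of the 4 testable genes (horizontal axis) between the sorts, between stages on VGAT plates, and between VGAT+Pitx3 cells with and without Slc6a3 or Slc32a1; filled points passed an adjusted p of 0.05 and open points did not. Slc17a6 stands at 5.25 between the sorts and at -2.10 by Slc6a3, and Slc1a2 at 1.12 and 1.26.

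The comparison of P0 with E16 in the VGAT sort asked whether these genes change around birth. Slc1a2 fell by 0.76 on the log2 scale (SE 0.16, adjusted p = 0.0219, edgeR), or 1.70-fold, and the 3 P0 plates were all below the 4 E16 plates. The plates whose 2 names agree in stage are E16 replicates 1 and 2 and, at P0, replicate 2 alone, the shallow plate on which most astrocyte markers were highest. That P0 plate is assumed to vary as the E16 plates do, so values on these plates say little about the stage names. Slc1a2 was at -0.38 there (adjusted p = 0.20), and its call was also lost without E16 replicate 3 (-0.71, adjusted p = 0.0753), without E16 replicate 4 (-0.71, adjusted p = 0.066) and without P0 replicate 3 (-0.81, adjusted p = 0.074). Slc17a8 stood at 1.38 (SE 0.43, adjusted p = 0.0781), with all 3 P0 plates above the 4 E16 plates. It passed the threshold with no filter on low counts (1.31, adjusted p = 0.0193) and without E16 replicate 2 (1.69, adjusted p = 0.0440), and on the plates with agreeing names it was 0.36 (adjusted p = 0.73). Slc1a1 stood at 0.20 (SE 0.13, adjusted p = 0.39). Slc17a6 stood at 0.48 (SE 1.05, adjusted p = 0.82), and all of its P0 counts lay on replicate 2. On the plates with agreeing names Slc1a1 was at 0.38 (adjusted p = 0.24) and Slc17a6 at 1.45 (adjusted p = 0.073).

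Of the 4 members tested by stage, 1 fell and none rose, against 4.58% of 13639 genes past the threshold. E16 and P0 plates did not overlap for 2 of the 4, Slc1a2 and Slc17a8, against 22.1% of all genes. For comparison, Slc32a1 rose by 0.61 (SE 0.15, adjusted p = 0.0367), a call lost without any 1 of E16 replicates 1, 3 and 4 and P0 replicates 2 and 3 (0.52 to 0.66, adjusted p = 0.062 to 0.14). Of the handling list 13 genes were tested: Slc38a2, a glutamine carrier, fell by 0.57 (adjusted p = 0.0357), with no call without any 1 of the same 5 plates (-0.65 to -0.46, adjusted p = 0.062 to 0.11). None rose, and 9 of the 12 uncalled genes had a higher value at P0 (list median 0.35, all genes 0.016). The number of genes called over the whole table ranged from 76 to 833 when single plates were left out.

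The VGAT+Pitx3 sort has 1 plate a stage, so its own stage difference has no replicate check. Slc1a2 was lower at P0 there too (224 against 348 CPM) and Slc17a6 higher (198 against 106 CPM), and the Poisson intervals of each pair, which cover counting error only, did not overlap. In the interaction of sort and stage, which asks whether the stage difference differed between the sorts, edgeR called 0 of 15724 genes (0%), with 998 genes at an unadjusted p under 0.05, and DESeq2 called 3. The estimates were 0.57 (95% interval -2.18 to 3.32) for Slc17a6, 0.19 (-0.48 to 0.86) for Slc1a2, 0.18 (-2.05 to 2.40) for Slc17a8 and -0.045 for Slc1a1.

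Counts per cell gave the shares behind these levels. Cells differ in depth, so each was thinned to 4000 counts, and 79 shallower cells (52 VGAT and 27 VGAT+Pitx3) were left out. Slc17a6 was then found in 84 of 299 VGAT+Pitx3 cells at E16 (28.1%, exact Clopper-Pearson 95% interval 23.1 to 33.6) and in 109 of 249 at P0 (43.8%, 37.5 to 50.2). Without thinning the shares were 52.3% and 56.1%. Among VGAT cells it was found in 7, 6, 2 and 2 cells on the E16 plates (3.83, 2.63, 0.67 and 0.68%) and in 0, 3 and 0 on the P0 plates. The 0 of 43 and 0 of 169 cells allow shares of up to 6.98% and 1.78% by the limit of 3 cells of the total, with exact 95% upper bounds of 8.22% and 2.16%. These limits are on cells with a count at this depth and not on cells that express the gene. Slc6a3, which the VGAT sort should lack, was found in 5 of 1408 thinned VGAT cells against 20 of 1408 for Slc17a6.

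Slc1a2 was found in 62.5% of VGAT+Pitx3 cells at E16 and 47.8% at P0, and in 37.7, 36.8, 47.3 and 42.0% of VGAT cells at E16 and 27.9, 29.4 and 28.4% at P0. As with the summed levels, the VGAT+Pitx3 plate was above every VGAT plate of its stage. Slc1a1 was found in 14.0 to 28.4% of cells on the VGAT plates and in 18.1 and 22.1% on the VGAT+Pitx3 plates, and here the sorts overlapped. Slc17a8 reached 5.33% on VGAT P0 replicate 3 and was at or under 4.65% on the other plates. Slc17a7 was at most 0.52%.

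GLT-1 is best known from astrocytes, so astrocyte markers were read beside it. The 10 astrocyte markers summed to 42.2 to 150 CPM (unscaled) on 6 VGAT plates, to 344 CPM on VGAT P0 replicate 2, and to 57.1 and 96.8 CPM on the VGAT+Pitx3 plates at E16 and P0. Most of the sum on 6 VGAT plates was Aldoc, a glycolytic enzyme. Without Aldoc the other 9 markers summed to 8.51 to 16.2 CPM on these plates, to 196 CPM on VGAT P0 replicate 2, and to 46.0 and 78.4 CPM on the VGAT+Pitx3 plates. At E16, 8 of the 10 markers were higher on the VGAT+Pitx3 plate than on each of the 4 VGAT plates, all but Aldoc and Gfap, whereas at P0 this held for 1 of the 10, Gfap, at 1.29 CPM on the VGAT+Pitx3 plate. Slc1a3 stood at 18.3 CPM on the VGAT+Pitx3 E16 plate and at most at 3.64 CPM on a VGAT E16 plate. Gfap was at 0 on 7 of the 9 plates and Aqp4 on 5, but Aqp4 stood at 17.7 CPM on the VGAT+Pitx3 P0 plate. Aldh1l1 stood at 5.89 and 7.77 CPM on the VGAT+Pitx3 plates at E16 and P0, and Slc1a3 at 27.6 CPM at P0. On the VGAT P0 plates Aqp4 ranged from 0 to 36.0 CPM, Aldh1l1 from 1.17 to 20.1 and Slc1a3 from 0.66 to 49.3.

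Astrocyte markers thus moved with the sort at E16, and the members were fitted again without the cells that held any count of Aqp4, Aldh1l1, Gja1 or Slc1a3, an alternative chosen after these levels had been seen. It left out 72 of 1460 VGAT cells and 64 of 575 VGAT+Pitx3 cells. Slc1a2 then differed between the sorts by 1.22 (SE 0.15, adjusted p = 3.13e-05, edgeR) and between P0 and E16 by -0.89 (SE 0.15, adjusted p = 0.0113), and Slc17a6 differed between the sorts by 5.45 (SE 0.48, adjusted p = 1.39e-06). Among thinned cells with Slc1a2, 9 of 306 in the VGAT+Pitx3 sort and 7 of 534 in the VGAT sort held at least 2 of the 4 markers, against 2 of 242 and 0 of 874 among cells without Slc1a2. Of the 18 cells with at least 2 markers, 16 thus held Slc1a2. VGAT P0 replicate 2 had a Slc1a2 level of 110 CPM, above the other 2 VGAT P0 plates, and without it the difference between the sorts was 1.16 (adjusted p = 0.000113).

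Within the VGAT+Pitx3 sort, the cells were next compared by whether they held Slc6a3, and here Slc17a6 and Slc1a2 moved in opposite directions. At E16, Slc17a6 was found in 15 of 142 cells with Slc6a3 (10.6%) and in 69 of 157 without (43.9%), and at P0 in 29 of 109 (26.6%) and 80 of 140 (57.1%). Its summed level was 28.3 CPM in cells with and 182 CPM in cells without Slc6a3 at E16, and 93.1 and 275 CPM at P0. With the plate as a block, edgeR gave a lower level in cells with Slc6a3 (log2 fold change -2.10, SE 0.15, adjusted p = 4.83e-41), at -2.65 on the E16 plate and -1.55 on the P0 plate. It was -1.36 when cells were split without thinning and -3.26 when cells with 2 or more counts of Slc6a3 were set against those with 0. Slc1a2 was higher, at 450 against 227 CPM on the E16 plate and 358 against 112 CPM on the P0 plate (1.26, SE 0.13, adjusted p = 3.32e-21). Slc1a1 stood at -0.46 (adjusted p = 0.13), and the other 2 genes were too low to test. Of the 3 members tested 1 was higher and 1 lower, against 10.2% of 11573 genes.

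The fit on 2 plates, 1 for each stage, has 1 residual degree of freedom. Its small p-values rest on the spread pooled over all genes and not on replicate plates of the sort. With no plate block the values were close (-1.99 and 1.24) and neither passed (adjusted p = 0.10 and 0.094). Both sides came from the same plates and libraries but from different wells, and cells with Slc6a3 were somewhat deeper (medians of 15364 against 13378 counts at E16 and 8197 against 7494 at P0). In the same comparison Th, tyrosine hydroxylase, was higher (2.71) and Gad2 (-2.76) and Slc32a1 (-1.56) were lower, and none of the 13 tested genes of the handling list was called.

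**Figure D3:**
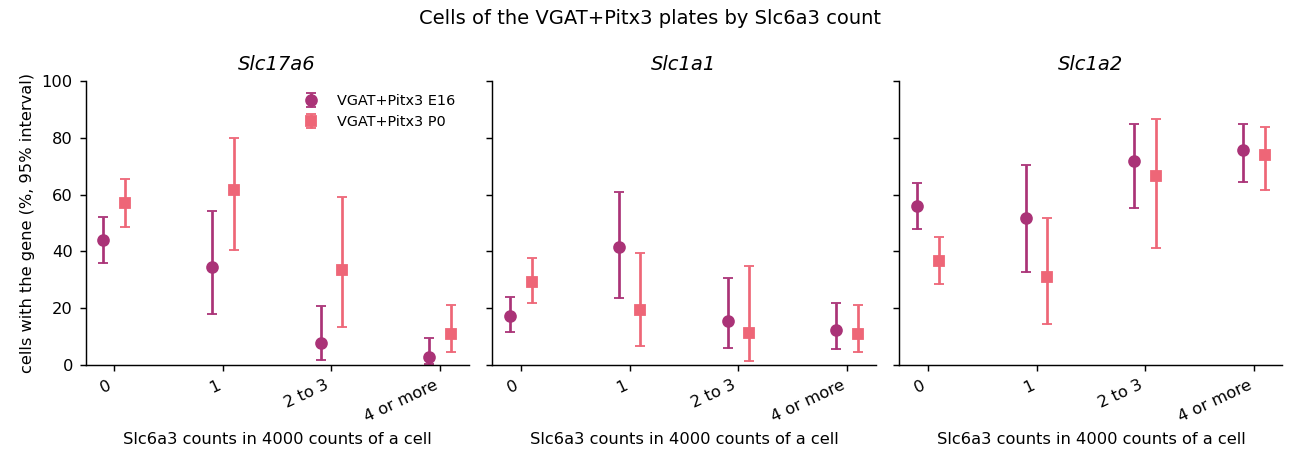
Share of thinned VGAT+Pitx3 cells with Slc17a6, Slc1a1 and Slc1a2 (vertical axis, percent) by the number of Slc6a3 counts in the cell (horizontal axis), for the E16 and the P0 plate, with exact 95% intervals. Slc17a6 is in 43.9 and 57.1% of cells with 0 Slc6a3 counts and in 2.70 and 10.8% of those with 4 or more, and Slc1a2 is in 56.1 and 36.4% and in 75.7 and 73.8%.

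The same relation was read by the number of Slc6a3 counts, in bins chosen after the split had been seen. At E16 the share with Slc17a6 was 43.9% at 0, 34.5% at 1, 7.69% at 2 to 3 and 2.70% at 4 or more counts, and at P0 57.1, 61.5, 33.3 and 10.8%. Slc1a2 went from 56.1, 51.7 and 71.8 to 75.7% at E16 and from 36.4, 30.8 and 66.7 to 73.8% at P0. Slc1a1 was at 17.2, 41.4, 15.4 and 12.2% at E16 and at 29.3, 19.2, 11.1 and 10.8% at P0, with no common order. The intervals of these shares, drawn in the plot by Slc6a3 counts, cover counting error within 1 plate only, and the bins restate the split above.

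Splitting the same cells by Slc32a1 gave the opposite pattern, but the 2 splits are not independent. Slc32a1 itself stood at 112 CPM in cells with and 332 CPM in cells without Slc6a3 at E16, and at 130 and 376 CPM at P0. Slc17a6 was found in 48 of 142 cells with Slc32a1 (33.8%) and 36 of 157 without (22.9%) at E16, and in 70 of 130 (53.8%) and 39 of 119 (32.8%) at P0. Its summed level was 141 CPM with and 76.0 CPM without Slc32a1 at E16, and 246 and 132 CPM at P0. The level was higher in cells with Slc32a1 (log2 fold change 0.90, SE 0.11, adjusted p = 0.000254, edgeR with the plate as block), at 0.92 and 0.86 on the 2 plates. Slc1a2 was lower (-1.30, SE 0.11, adjusted p = 7.58e-06), with 195 against 452 CPM at E16 and 120 against 338 CPM at P0. Slc1a1 was at 0.62 (adjusted p = 0.0881) and passed when cells were split without thinning (0.72, adjusted p = 0.025), at 2 or more counts (0.81, adjusted p = 0.0070) or without cells with an astrocyte marker (0.73, adjusted p = 0.0054). Of the 3 tested members 1 was higher and 1 lower, against 3.76% of 11352 genes, and 0 of 13 genes of the handling list were called. With no plate block, Slc17a6 (0.92, adjusted p = 1.0) and Slc1a2 (-1.30, adjusted p = 0.20) kept their size and did not pass.

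The cells were then classed by both transporters at once. At E16 Slc17a6 was in 10.0% of the 100 cells with Slc6a3 alone, 11.9% of 42 with both, 43.0% of 100 with Slc32a1 alone and 45.6% of 57 with neither. At P0 the shares were 23.1% of 78, 35.5% of 31, 59.6% of 99 and 51.2% of 41. Cells with neither transporter thus held Slc17a6 at shares close to those of cells with Slc32a1 alone. At E16 its share hardly differed by Slc32a1 among cells with Slc6a3 (11.9 against 10.0%) or without it (43.0 against 45.6%). At P0 it was higher with Slc32a1 on both sides (35.5 against 23.1% and 59.6 against 51.2%). Slc1a2 was most frequent in cells with Slc6a3 alone, at 74.0% (64.3 to 82.3) at E16 and 70.5% (59.1 to 80.3) at P0, and stood at 59.5, 53.0 and 61.4% and at 41.9, 41.4 and 24.4% in the other classes in the same order. Slc1a1 ranged from 12.3 to 21.4% at E16 and from 8.97 to 30.3% at P0, lowest at P0 in cells with Slc6a3 alone. These shares of single plates are descriptions, and a cell with 0 thinned counts of a transporter may still express it.

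**Figure D4:**
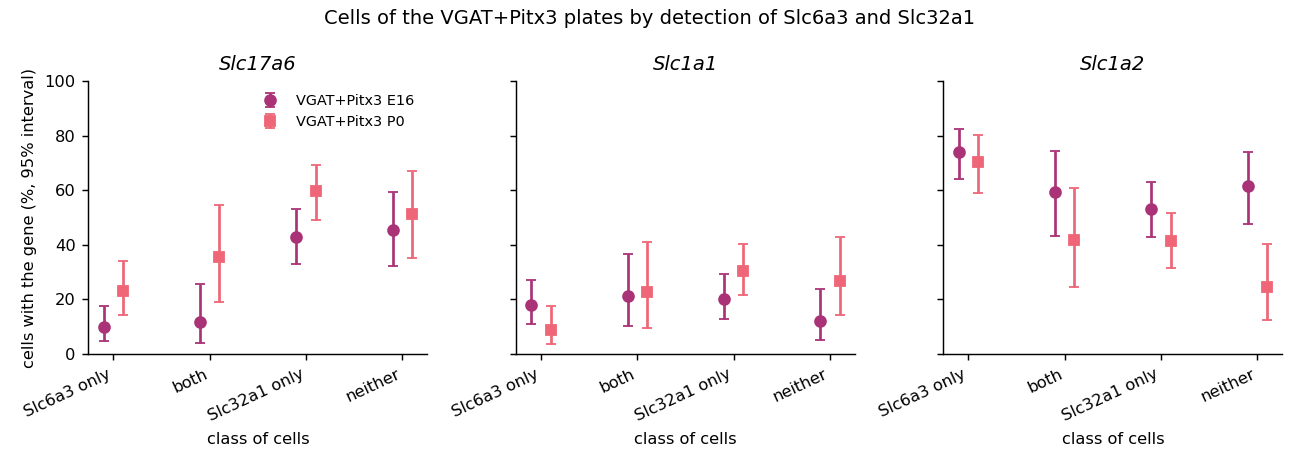
Share of thinned VGAT+Pitx3 cells (vertical axis, percent, with exact 95% intervals) with Slc17a6, Slc1a1 and Slc1a2 in cells holding Slc6a3 only, both transporters, Slc32a1 only or neither (horizontal axis), for the E16 and P0 plates. Slc17a6 is in 10.0 to 35.5% of the classes with Slc6a3 and in 43.0 to 59.6% of those without, and Slc1a2 is most frequent in cells with Slc6a3 only, at 74.0 and 70.5%.

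Before thinning, 311 of the 575 VGAT+Pitx3 cells held Slc17a6. Of these 255 also held Slc32a1, 284 Gad2, 164 Th and 119 Slc6a3. Slc32a1 was thus in 82.0% of the cells with Slc17a6 and in 55.7% of those without, Gad2 in 91.3 and 53.8%, Th in 52.7 and 78.0%, and Slc6a3 in 38.3 and 77.7%, at medians of 10945 and 10110 counts per cell. The genes whose counts went most with Slc17a6 across VGAT+Pitx3 cells, by the mean of the within-plate Pearson correlations on 2 plates and among 6781 genes, were Nova1 (0.35), Gad2 (0.35), Cbln1 (0.32), Mgat4c (0.31), Ebf3 (0.31), Zfp536 (0.30), Nrp2 (0.29) and Mdga2 (0.29). Nova1 encodes a neuronal splicing factor, Cbln1 a synapse organiser secreted by glutamatergic neurons and Ebf3 a transcription factor. Slc6a3 (-0.39) and Th (-0.32) were at the other end. The cells of a plate share a library and a depth, and these values are given as descriptions across cells. Across VGAT cells no correlation with Slc17a6 exceeded 0.13, which in counts this sparse is no finding.

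The few VGAT cells with Slc17a6 were described one by one. Over all depths 37 of 1460 held it, of which 22 had 1 count and 6 had 4 or more, and the 3 highest cells held 30 of the 91 counts. Of the 37, 35 had Gad1 (94.6%, against 98.7% of the other VGAT cells), 35 Gad2 (94.6 against 94.9%), 29 Slc32a1 (78.4%, against 84.6% of the other VGAT cells) and 2 Slc6a3. These shares rest largely on the 22 cells with 1 count. The cell with 11 counts had 0 of Gad1, that with 10 had 0 of Slc32a1, and that with 7 had 0 of Slc32a1 and of Gad2. The cells with 9, 8 and 4 counts held Slc32a1, Gad1 and Gad2. On VGAT P0 replicate 2, 2 cells with 11 and 10 counts held most of the 27 counts of the plate. The second of these also held 25 counts of Slc1a3, 1 of Aqp4 and 0 of Slc32a1. Slc17a8 was found in 69 VGAT cells, of which 44 had 1 count, all 69 had Gad1 (98.5% of the others) and 63 had Slc32a1 (91.3%, against 84.1% of the others). Cells with Slc17a8 were deeper, with a median of 21212 against 16246 counts. The 7 VGAT cells with Slc17a7 all had Gad1, as had 98.6% of the others.

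On the 2 plates with at least 5 such cells, VGAT E16 replicates 1 and 2, the 7 and 6 thinned cells with Slc17a6 were compared with the other 176 and 222. The test called 76 of 11870 genes (0.64%), and neither Slc1a2 (0.75, adjusted p = 0.47) nor Slc1a1 (-0.23, adjusted p = 1.0) was among them. Among the named genes in the higher direction, the transcription factor gene Tcf4 (log2 fold change 1.90) was found in 11 of the 13 cells and in 162 of the 398 others. Nrn1 (5.02), Cacna2d1 (4.65), Sox1 (2.24), Mef2c (2.18), Mab21l1 (1.96), Lmo4 (1.53) and Nfia (1.37) were found in 2 to 5 of the 13 cells, and Reln (1.64) in 6. Of the 398 others, 0.50% held Nrn1, 4.52% Cacna2d1, 5.53% Sox1, 9.55% Mef2c, 8.29% Mab21l1, 17.8% Nfia and 31.2% Reln. Lmo4 was in 5 of the 13 cells and in 173 of the others (43.5%), so its higher level did not come with a larger share of cells, and 41.3% of its counts in the 13 cells were in 1 cell. Single cells weighed heavily: 62.0% of the Cacna2d1 counts and 78.1% of the Reln counts were in 1 cell.

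Lower genes included the transcription factor genes Ebf1, with 1 count in the 13 cells and 1733 in the others, Tfap2b (1 and 952), Ebf3 (2 and 1070) and Bnc2 (0 and 407). After thinning they were found in 0, 0, 1 and 0 of the 13 cells and in 72 (18.1%), 28 (7.04%), 79 (19.8%) and 20 (5.03%) of the 398 others, so the others too mostly lacked them. Il1rapl2, Dlk1, Zbtb38, Rorb, Gm30382 and Irs1 were lower as well, with 1 to 4 counts each in the 13 cells, and were found in 11.3 to 27.6% of the others. The cells with Slc17a6 on replicate 1 were shallow, with a median of 5845 counts against 21188. The number of calls was 32 with another scaling (RLE) and 5 with no plate block, and the comparison rests on 13 cells.

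Co-detection in the VGAT sort was tested across plates, as the difference in the share with a member between cells with and without a partner gene. Of the 22 pairs tested with an exact two-sided sign-flip permutation test over 6 or 7 plates, 0 passed after adjustment (0%), and 1 had an unadjusted p under 0.05. The smallest p that 7 plates allow is 0.0156 (0.0313 for 6), so a pair alone at that p would have an adjusted p of 0.34 and could not pass. Slc17a6 was found in 1.09% of cells with Slc32a1 and 1.84% of those without, a difference of -0.75 percentage points (SD 1.91, n = 7, exact permutation p = 0.44, adjusted p = 0.79). Slc17a8 differed by 2.24 points (SD 2.83, n = 7, exact permutation p = 0.0781, adjusted p = 0.57), higher in cells with Slc32a1 on 5 of 7 plates. With Gad2 it differed by 1.39 points (SD 2.03, n = 7, exact permutation p = 0.0313, adjusted p = 0.57), higher on 6 of 7 plates, and the sign turned when cells were thinned to 8000 counts or only spliced reads were counted.

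Slc1a2 was less frequent in VGAT cells with Slc32a1 on 6 of 7 plates, with a mean difference of -11.6 points (SD 14.8, n = 7, exact permutation p = 0.0625, adjusted p = 0.57), which did not pass. This sign too turned at 8000 counts per cell (1.31 points) and with no thinning (11.4 points). Slc1a1 differed by -0.15 points (SD 6.71, n = 7, exact permutation p = 0.94, adjusted p = 1.0), with signs that turned in the same way. Slc6a3 was too rare among VGAT cells for a test with any member, and 0 of its 5 cells held Slc17a6. On the VGAT+Pitx3 plates the same difference for Slc17a6 was 10.9 and 21.1 points with Slc32a1 and -33.4 and -30.5 points with Slc6a3.

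**Figure D5:**
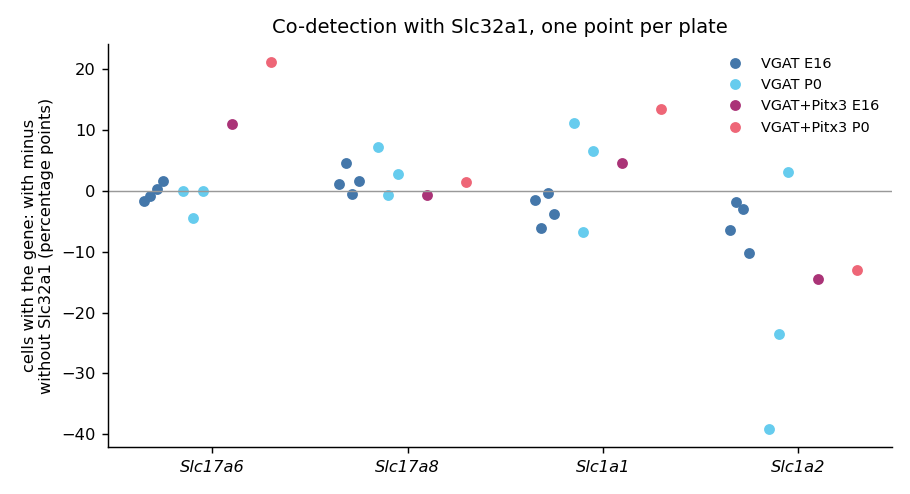
Difference in the share of thinned cells with each of 4 genes (horizontal axis; Slc17a7 is too rare to show) between cells with and cells without Slc32a1 (vertical axis, percentage points), for each VGAT and VGAT+Pitx3 plate. For Slc17a6 the 2 VGAT+Pitx3 plates are at 10.9 and 21.1 points and the VGAT plates between -4.48 and 1.52, and for Slc1a2 6 of the 7 VGAT plates are below 0.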

How the data were processed

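Single cells were sorted into 384-well plates and sequenced by SORT-seq, a plate form of CEL-seq2 with molecular barcodes. The authors aligned reads with STAR to the mouse genome (mm10) and deposited estimated counts of molecules per gene and well, corrected for barcode collisions, with exons and introns together and spliced reads apart. The total table was used. Every plate uses the same well barcodes. Kept cells were summed per plate and rounded, and tested with edgeR 4.0.16 (R 4.3.3, filterByExpr, TMM, quasi-likelihood test, Benjamini-Hochberg over all genes tested, threshold 0.05). Alternatives used DESeq2 1.42.0, RLE factors, no filter, spliced counts, no cells above 2 times the plate median, no cells with an astrocyte marker and single plates left out. Shares of cells were computed after thinning to 4000 counts (Python 3.11.15, scipy 1.17.1). Cells were split on thinned counts, and their full counts were summed. Scripts were tested on simulated data. The members, lists and tests were chosen with earlier results of these data known. Genes named beside the members are fixed transmitter genes, up to 10 called genes with the largest change in each direction in the split by Slc17a6 and the 8 most like Slc17a6. Some genes and marker lists are not reported here. Replicate numbers are not stated to pair plates. Sample depth limits the low genes: 3 counts correspond to 0.55 to 2.09 CPM on a plate.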

Additional observations from a re-analysis of the deposited data

How the results depend on the processing

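Between the sorts, the calls of Slc17a6 (log2 fold change 4.08 to 5.80) and Slc1a2 (1.02 to 1.22) held under all 16 alternatives each, and Slc17a8 and Slc1a1 stayed uncalled. The lowest value of Slc17a6 was that on plates with agreeing names. Leaving out 1 of the 2 VGAT+Pitx3 plates leaves that sort with 1 plate, assumed to vary as the VGAT plates do. The number of genes called, 1306, was 625 without the VGAT+Pitx3 E16 plate and 866 without the P0 plate.

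By stage, Slc1a2 kept its direction under all 16 alternatives and lost its call in 6. It ranged from -0.88 to -0.64 with single plates left out and was -0.38 on plates with agreeing names (1 plate at P0), an alternative chosen after seeing the data. Slc17a8 ranged from 1.11 to 1.69 with single plates left out and was 1.31 with no filter on low counts. Slc17a6 by stage turned to -2.26 without cells above 2 times the plate median and to -0.023 without cells with an astrocyte marker (also chosen after seeing the data), and ranged from -6.76 to 1.26 with single plates left out, the lowest without P0 replicate 2, where both remaining P0 plates were at 0. The cause was not tested. Against 624 genes called by stage, DESeq2 called 944, no filter 1588 and single plates left out 76 to 833 (92 without E16 replicate 3, 76 without P0 replicate 3).

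Replicate numbers are not stated to pair plates, so the main fit had no block. The deviations of plates with the same number were weakly and positively correlated (0.033, 0.060 and 0.014). With the replicate number as a block, replicates 1 to 3 gave 219 calls, against 130 for the same plates without the block. Slc1a2 was -0.72 with the block and -0.71 without, and Slc17a6 -0.10 with it. The plates without the block are those of the fit without E16 replicate 4, in which the call of Slc1a2 was lost. Among replicates 1 to 3, every E16 plate correlated best with the P0 plate of its own number, but P0 replicate 3 did not correlate best with E16 replicate 3.

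In the interaction, Slc17a8 turned to -0.56 with spliced counts and -0.37 without large cells (-0.13 to 0.45 with single plates left out), Slc1a1 to 0.14 with spliced counts and 0.034 without cells with an astrocyte marker (-0.14 to 0.082), and Slc17a6 ranged from -0.35 to 7.63. No filter gave 66 calls.

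In the splits of VGAT+Pitx3 cells, no plate block gave -1.99 (Slc17a6) and 1.24 (Slc1a2) by Slc6a3 and 0.92 and -1.30 by Slc32a1, and the block-free counts of calls were 231 against 1178 and 3 against 427. No thinning gave 680 calls by Slc32a1, at least 2 counts 646 and no cells with an astrocyte marker 668. On single plates the values by Slc6a3 were -2.65 to -1.55 for Slc17a6, -1.03 to -0.087 for Slc1a1 and 0.98 to 1.65 for Slc1a2, and by Slc32a1 0.86 to 0.92 (1.44 for Slc17a6 with no thinning), 0.43 to 0.89 and -1.50 to -1.17. Slc1a1 by Slc32a1 was 0.72 with no thinning, 0.81 at 2 or more counts and 0.73 without cells with an astrocyte marker. In the split by Slc17a6, single plates gave -1.19 to 0.55 for Slc1a1 and 0.34 to 1.12 for Slc1a2, Slc1a1 turned to 0.074 with no thinning, and spliced counts and the limit of 2 counts left fewer than 2 plates and were not run.

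In co-detection, Slc1a1 with Slc32a1 turned to 4.52 points at 8000 counts, 22.1 with no thinning and 0.61 with spliced counts, and ranged from -2.04 to 0.96 with single plates left out. Slc1a2 with Slc32a1 turned to 1.31 and 11.4, and Slc17a8 with Gad2 to -1.93 at 8000 counts and -2.16 with spliced counts. Without thinning, Slc1a2 was found in 85.9 and 59.8% of VGAT+Pitx3 cells.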
